A study of Rattus norvegicus with 15 samples.

Results

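Livers of rats that ate a lipid-raising diet and received Zexie Decoction (ZXD) were compared with livers of rats on normal chow (CON), gene by gene, to describe how far the decoction-treated livers lay from chow livers. The comparison took the 5 libraries titled ZXD and the 5 titled CON, 10 of the 15 libraries of the series. It used the read count columns of 1 expression table, scaled with TMM, a method that sets libraries on a common scale from the bulk of their genes. Of 21576 genes in the table, 13163 had enough counts to be tested and 8413 did not. The 5 libraries of the diet group given saline (HFD) entered the same fit and are given beside the main results.

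All rats were male Sprague-Dawley rats, and each group held 10. CON rats ate chow throughout. The feed of HFD and ZXD rats was 66% base forage with 16.7% sucrose, 8.3% yolk, 7% lard and 2% cholesterol, and also held 0.3% sodium cholate and 0.2% propylthiouracil, an inhibitor of thyroid hormone production. After 4 weeks of this feed, ZXD rats received an oral daily dose of 2.2 g of the decoction, an herbal extract, per kg for another 4 weeks, and HFD rats received saline over the same time. ZXD livers thus differed from CON livers in the feed, in propylthiouracil and in the decoction at once, and the comparison cannot tell these apart. The labels do not say which rats or how many each library came from, so the p-values measure the spread between these libraries.

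The liver is built mainly of hepatocytes, which make most plasma proteins and pass them through the endoplasmic reticulum and Golgi apparatus into the blood. Between them run sinusoids, lined by a fenestrated endothelium and patrolled by Kupffer cells, the resident macrophages, while lymphocytes and monocytes enter from the circulation. Few cells of an adult liver divide at any time, and stellate cells around the sinusoids make most of the matrix when the organ is injured. In such bulk tissue RNA, more or fewer cells of a type and more or less RNA per cell cannot be told apart.

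Total counts lay between 12552449 and 14228052 per library, and 3 counts corresponded to 0.183 to 0.285 CPM, the level below which a value is uncertain. CPM are counts brought to one common library size after TMM scaling. The TMM factors were 0.793 to 0.867 in CON and 1.01 to 1.28 in ZXD, with the highest in ZXD 4. Albumin took 7.53% to 9.22% of all counts in CON and 1.76% to 5.12% in ZXD. The libraries matched their liver label: albumin had the highest level of the hepatocyte-defining genes in each group, and 14 of 18 markers of neighbouring tissues were too low to test. On unscaled library totals the all-gene median of the log2 fold change was 0.45 in place of 0.03, and the split of calls was 6041 higher and 628 lower.

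Across all tested genes, ZXD livers stood apart from CON livers by a wide margin. The edgeR quasi-likelihood test called 4296 of 13163 genes at a Benjamini-Hochberg adjusted p under 0.05, or 32.6%, of which 2352 (17.9%) were higher and 1944 (14.8%) lower in ZXD. Among the called genes, rises were larger than falls. Of the 2352 higher genes, 1611 changed at least 2-fold and 754 at least 4-fold, against 572 and 131 of the 1944 lower genes. The higher genes also had larger standard errors, with a median of 0.381 against 0.184. Their median level was 14.4 CPM in ZXD, against 52.1 CPM in CON for the lower genes. A gene with a larger standard error needs a larger fold change to be called, so these sizes do not compare both directions at equal precision. The median log2 fold change was 1.44 among the higher genes and -0.72 among the lower ones. All 5 ZXD libraries lay outside the CON range for 2370 genes, 18% of those tested. The same fit called 2759 genes (21%) in HFD against CON, 1322 (10%) higher and 1437 (10.9%) lower. It called 0 genes between ZXD and HFD, where 2167 genes (16.5%) had an unadjusted p under 0.05, 1295 (9.84%) of them higher and 872 (6.62%) lower in ZXD, while DESeq2 called 342 there and limma voom 0. HFD versus CON and ZXD versus CON share the CON libraries, so their values are set side by side with no test of likeness.

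The distance of single libraries from chow varied more within ZXD than within CON. For each library the root mean square difference in log2 CPM over all tested genes was averaged over the CON libraries, and for a CON library over the other CON libraries. It was 0.753, 0.674, 0.682, 0.672 and 0.657 in CON 1 to 5. The values were 0.933, 0.8501, 1.28, 1.51 and 1.06 in ZXD 1 to 5. They were 0.903, 1.200, 1.03, 0.848 and 1.22 in HFD 1 to 5. No ZXD library reached the CON range, ZXD 4 and ZXD 3 lay farthest out, and ZXD 2 was the nearest to chow. The ZXD mean of 1.13 ± 0.269 (SD, n = 5) exceeded the HFD mean of 1.04 ± 0.168 by 0.0866, less than the spread between libraries (two-sided exact permutation p = 0.556, smallest possible 0.0079). Without ZXD 4 the difference turned to -0.00907 (exact permutation p = 0.960).

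**Figure D1:**
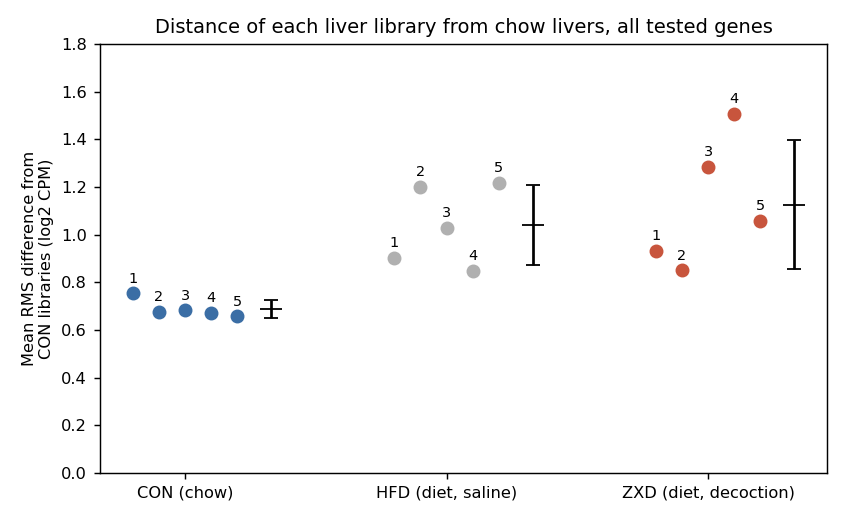
Distance of each of the 15 libraries from the CON libraries, as the mean root mean square difference in log2 CPM over 13163 genes. Numbers beside points are replicate numbers, and the bars give the group mean with its SD. All ZXD points lie between 0.850 and 1.51, above the CON points at 0.657 to 0.753.

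Gene lists for 4 themes were read against the shares called over all genes. Among immune genes, 113 of 164 tested members rose and 4 fell, with a median log2 fold change of 2.13, against 0.03 over all genes. Among proliferation genes, 36 of 81 rose and 0 fell, with a median of 1.16. In the vascular theme 45 of 126 rose and 3 fell, with a median of 0.76. In the secretory theme 95 of 225 fell and 13 rose, with a median of -0.38, and on library totals the theme gave 57 rises and 55 falls. On that scale rises far outnumbered falls over all genes. The list counts on library totals given below are to be read against that split. In HFD against CON the counts were 69 higher and 4 lower for immune genes, 6 and 1 for proliferation genes, 11 and 3 for vascular genes and 12 and 90 for secretory genes.

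**Figure D2:**
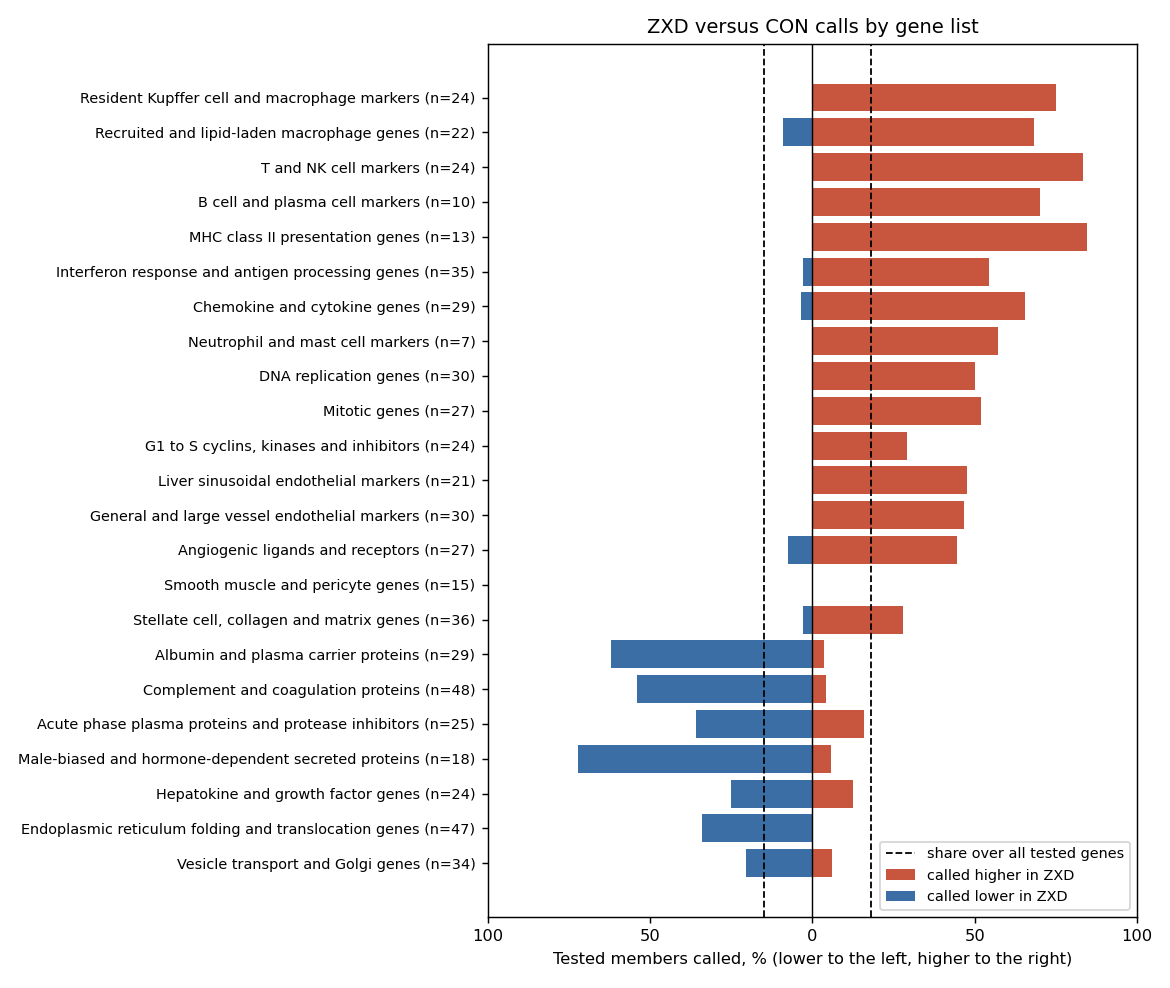
Share of the tested members of each list of the 4 themes called higher (right) or lower (left) in ZXD against CON. Dashed lines mark the shares over all tested genes, 17.9% higher and 14.8% lower. Of the lists plotted, MHC class II and T and NK cell genes reach farthest right, and male-biased secreted and plasma carrier proteins farthest left.

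The immune counts dropped when ZXD 3 and ZXD 4 were left out. This pair was chosen after seeing the data, and no other pair was left out. The smaller ZXD group also has less power. A lower count without both thus does not by itself measure how far the rises rested on these libraries. The 113 rises became 75 without ZXD 4 and 23 without both ZXD 3 and ZXD 4, and the 4 falls became 2 without ZXD 3. The 36 proliferation rises became 22 without CON 3, 21 without CON 5, 16 without ZXD 4 and 9 without both ZXD 3 and ZXD 4, with 2 falls without CON 1 and 1 without CON 4. The 45 vascular rises became 21 without CON 3, 24 without CON 5, 28 without ZXD 3, 24 without ZXD 4 and 7 without both ZXD 3 and ZXD 4. The 95 secretory falls ranged from 80 to 101 with any 1 library left out and were 67 without both. In all genes the count of rises became 720 and that of falls 896 without ZXD 3 and ZXD 4.

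**Figure D3:**
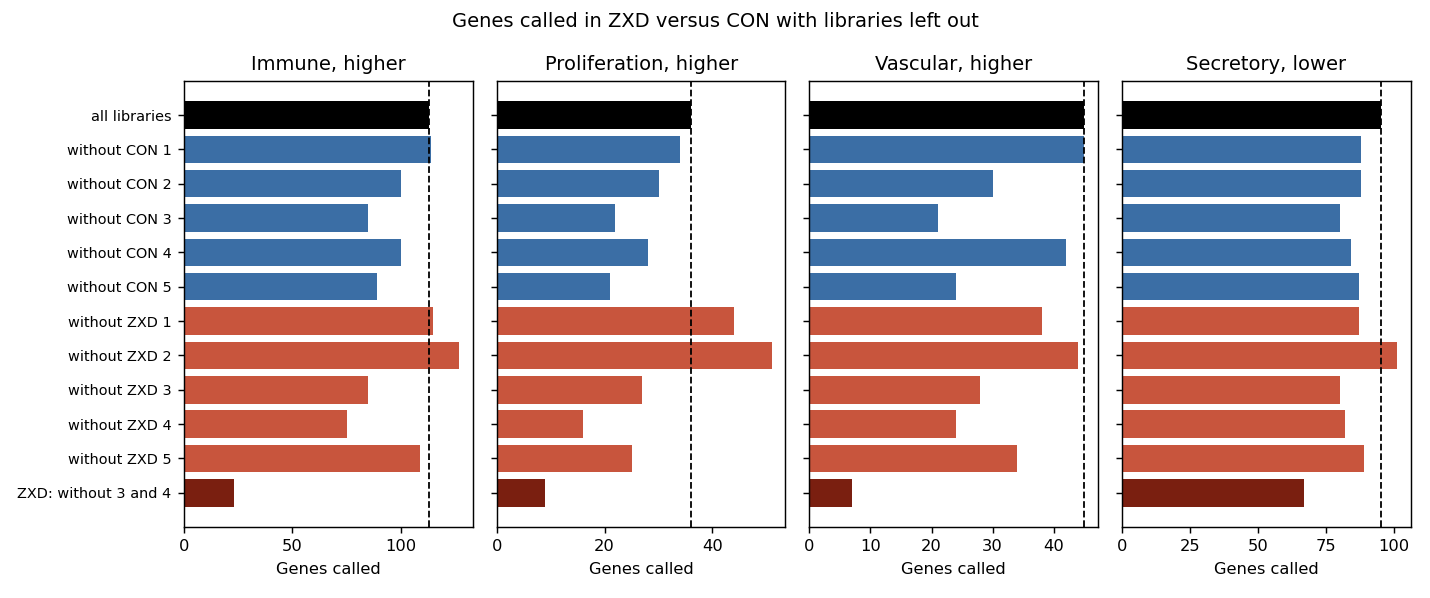
Number of genes called in each theme with all libraries (black), without each CON library (blue), without each ZXD library (red) and without ZXD 3 and ZXD 4 together (dark red), in the direction named in each panel title. Dashed lines mark the count with all libraries, 113, 36, 45 and 95. Immune, proliferation and vascular rises drop to 23, 9 and 7 in the bottom bar, and secretory falls to 67.

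The 10 largest rises among genes of at least 5 CPM and with no overlap of groups included Mmp9, Pla2g7, Ankdd1a, Ptger2, Slamf6 and Clec7a, described here, and Ubd, Ccl2 and Fst, given with their lists. Mmp9, a gelatinase released by leukocytes, stood at 0.448, 0, 0.3799, 0.266 and 0.1703 CPM in CON 1 to 5 and at 6.53, 1.64, 52.2, 65.8 and 2.25 CPM in ZXD 1 to 5 (log2 fold change 6.63 ± 1.24, adjusted p = 0.00206). Pla2g7, a phospholipase of macrophages that cleaves platelet-activating factor, ranged from 0.09496 to 0.713 CPM in CON and from 1.56 to 95.6 CPM in ZXD (log2 fold change 6.52 ± 1.501, adjusted p = 0.00586). Both were highest in ZXD 3 and ZXD 4 and lowest in ZXD 2. Ankdd1a, an ankyrin repeat gene, rose by 6.22 ± 1.34 on the log2 scale, and Ptger2, a prostaglandin E receptor, by 5.35 ± 1.09. Slamf6, a lymphocyte receptor, rose by 5.25 ± 1.196, and Clec7a, the beta-glucan receptor of myeloid cells, by 5.16 ± 1.100. Several of these were near or under 3 counts in CON, so the sizes of their fold changes are uncertain. Without ZXD 3 and ZXD 4 the calls of Pla2g7, Ankdd1a and Slamf6 were lost, and limma voom called none of these 6 genes.

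The deepest falls included abundant hepatocyte genes. Obp3, an abundant odorant-binding lipocalin of male rat liver, stood at 6.19, 138, 642, 252 and 93.4 CPM in CON 1 to 5 and at 0.344, 0.156, 0.279, 0.122 and 0 CPM in ZXD 1 to 5 (log2 fold change -10.22 ± 1.14, adjusted p = 5.1e-05). Its CON values spread widely, yet the lowest of them was far above the highest ZXD value. Limma voom did not call it (adjusted p = 0.0639). Car3, a carbonic anhydrase of male liver, read 461, 1199, 791, 1541 and 454 CPM in CON and 27.8, 34.8, 10.1, 6.34 and 9.49 CPM in ZXD (log2 fold change -5.65 ± 0.74, adjusted p = 1.7e-04). Stac3 (log2 fold change -6.75 ± 1.200, adjusted p = 0.00154), an adaptor known from muscle, ranged from 24.01 to 486 CPM in CON and from 0.1396 to 4.13 CPM in ZXD. Gimd1, a GTPase-like gene, was at 2.41 to 9.401 CPM in CON and at 0 in 4 of 5 ZXD libraries, with 0.244 CPM in ZXD 4. Onecut1, a transcription factor of hepatocytes and bile ducts, fell from 118 ± 35.5 to 4.699 ± 2.78 CPM (mean ± SD, n = 5 each; log2 fold change -4.65 ± 0.55, adjusted p = 8.7e-05).

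Other falls concerned genes whose counting is uncertain because of close relatives. Cyp4a8, a fatty acid hydroxylase, fell by 26.7-fold (log2 fold change -4.74 ± 0.71, adjusted p = 5.1e-04), Cyp3a85-ps by 5.33 ± 0.89 on the log2 scale and the numbered copy Dhrs7_1 by 5.11 ± 0.83. RT1-CE16, a class I gene of the rat major histocompatibility complex, read 127, 118, 94.7, 113 and 204 CPM in CON and 1.93, 1.09, 1.47, 4.08 and 17.2 CPM in ZXD (log2 fold change -4.67 ± 1.19, adjusted p = 0.00962). In HFD it read 122, 213, 1.33, 1.57 and 175 CPM, with a log2 fold change against CON of -0.36 (adjusted p = 0.821). The 5 ZXD livers were thus all low, while HFD livers ran from near ZXD to the CON level. The difference between ZXD and HFD was -4.32 ± 1.17 (adjusted p = 0.155). Reads shared with other class I genes make its level uncertain.

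The list of Kupffer cell and macrophage markers rose, though some markers particular to Kupffer cells were not called. Of its 24 tested members, 18 rose and 0 fell, with a median of 1.91. The list is not of Kupffer cell genes alone. Cd68, a lysosomal macrophage glycoprotein, read 29.8, 22.1, 11.9, 26.7 and 10.1 CPM in CON 1 to 5 and 52.8, 28.6, 140.0, 160.1 and 60.8 CPM in ZXD 1 to 5 (log2 fold change 2.14 ± 0.57, adjusted p = 0.0123). Only ZXD 2 fell within the CON range. Adgre1, which encodes F4/80, ranged from 4.08 to 18.3 CPM in CON and from 24.1 to 52.4 CPM in ZXD (log2 fold change 1.92 ± 0.402, adjusted p = 0.00386), with no overlap. Itgam, the integrin CD11b of monocytes, ranged from 1.11 to 3.900 and from 6.16 to 119 CPM (log2 fold change 4.602 ± 0.93, adjusted p = 0.00322). Ptprc, the pan-leukocyte antigen CD45, rose from 18.4 ± 7.82 to 134 ± 115 CPM (log2 fold change 2.86 ± 0.57, adjusted p = 0.00284). Timd4, a phosphatidylserine receptor of resident Kupffer cells, rose by 2.35 ± 0.51. Clec4f, a Kupffer cell lectin, read 61.03 to 243 CPM in CON and 127 to 196 CPM in ZXD (log2 fold change 0.18 ± 0.32, adjusted p = 0.702), and the scavenger receptor Cd163 read 16.8 to 64.97 and 53.9 to 78.1 CPM (log2 fold change 0.64 ± 0.42, adjusted p = 0.2598). The count of 18 became 4 without both ZXD 3 and ZXD 4.

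Genes of recruited and lipid-laden macrophages rose with a median of 2.53, and 15 of 22 tested members were called higher. Gpnmb, a glycoprotein of lipid-loaded macrophages, read 40.4, 15.7, 5.03, 15.1 and 5.79 CPM in CON 1 to 5 and 299, 35.1, 779.8, 1418 and 130.4 CPM in ZXD 1 to 5 (log2 fold change 5.02 ± 1.05, adjusted p = 0.00372). ZXD 2 alone lay within the CON range, and ZXD 4 was the highest. Itgax, the integrin CD11c, ranged from 1.42 to 2.57 CPM in CON and from 3.35 to 126 CPM in ZXD (log2 fold change 4.29 ± 0.899, adjusted p = 0.00385). Lpl, lipoprotein lipase, rose from 6.12 ± 1.999 to 87.1 ± 62.3 CPM in ZXD (log2 fold change 3.83 ± 0.65, adjusted p = 0.00112) and to 251 ± 197 CPM in HFD (log2 fold change 5.36 against CON). The 2 falls were Apoe (log2 fold change -0.69 ± 0.21, adjusted p = 0.0237) and Lipa, lysosomal acid lipase (log2 fold change -0.77 ± 0.16, adjusted p = 0.00392), both also made by hepatocytes. On library totals the list had 17 rises and 0 falls. The Apoe call was lost with adjusted p-values of 0.0516 without CON 2, 0.0546 without CON 3 and 0.0534 without ZXD 3. The count of 15 became 8 without CON 3, 9 without CON 4, 9 without CON 5, 9 without ZXD 3, 6 without ZXD 4 and 3 without both ZXD 3 and ZXD 4.

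Lymphocyte markers rose from low levels. In the T and NK cell list 20 of 24 tested members rose and 0 fell, with a median of 2.57, and the B cell list gave 7 of 10 with a median of 2.397. Lck, the kinase that starts T cell receptor signalling, read 2.15, 1.07, 0.9496, 1.51 and 1.28 CPM in CON 1 to 5 and 5.91, 2.26, 10.96, 22.4 and 8.91 CPM in ZXD 1 to 5 (log2 fold change 2.85 ± 0.51, adjusted p = 0.00158). The groups did not overlap, and ZXD 4 was the highest. The T cell receptor chain Cd3e rose by 3.08 ± 0.74, its partner Cd247 by 3.61 ± 0.63 and the cytotoxic co-receptor Cd8a by 3.59 ± 0.86. Nkg7, a granule protein of killer cells, ranged from 0.341 to 1.16 CPM in CON and from 0.825 to 12.2 CPM in ZXD (log2 fold change 2.81 ± 0.64, adjusted p = 0.00566), where ZXD 1 and ZXD 2 lay within the CON range. Cd79b, a chain of the B cell receptor, rose by 3.33 ± 0.598 and the B cell adaptor Blnk by 3.38 ± 0.74, with no overlap in either. Their CON means were 0.182 and 0.3703 CPM, near the level of 3 counts. Without both ZXD 3 and ZXD 4 the T and NK count became 2 and the B cell count 2.

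Genes of antigen presentation by MHC class II showed the largest list median, 3.004, with 11 of 13 tested members called higher. Cd74, the invariant chain that guards class II molecules, read 108, 130.4, 64.4, 99.6 and 97.6 CPM in CON 1 to 5 and 751, 204, 2475, 2762 and 1053 CPM in ZXD 1 to 5 (log2 fold change 3.86 ± 0.72, adjusted p = 0.002005). The CON livers kept close to each other, while ZXD livers spread more than 10-fold, with ZXD 2 the lowest and ZXD 3 and ZXD 4 the highest. In HFD it read 484, 2114, 780.3, 168 and 1624 CPM. The class II chain RT1-Da followed at 44.3 to 536 CPM in ZXD against 12.7 to 26.8 in CON (log2 fold change 3.78 ± 0.71, adjusted p = 0.00208), and Ciita, the master activator of class II genes, at 4.68 to 128 against 2.18 to 4.72 CPM (log2 fold change 4.12 ± 0.78, adjusted p = 0.00227). The count of 11 became 7 without CON 3, 7 without ZXD 4 and 3 without both ZXD 3 and ZXD 4.

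Among interferon response and antigen processing genes 19 of 35 tested members rose, with a median of 1.91. The members that rose included genes known to respond to interferon gamma. Ubd, a ubiquitin-like modifier, read 1.35, 10.6, 0.855, 14.98 and 11.6 CPM in CON 1 to 5 and 53.8, 32.9, 661, 607 and 1013 CPM in ZXD 1 to 5 (log2 fold change 5.91 ± 1.13, adjusted p = 0.00234). The groups did not overlap, with ZXD 1 and ZXD 2 more than 10-fold under the other ZXD libraries. The chemokine Cxcl9 showed the same division, at 28.2, 15.9, 610.5, 967 and 586 CPM in ZXD 1 to 5 against 5.53 to 16.8 in CON (log2 fold change 5.36 ± 1.02, adjusted p = 0.00233). Irf1, a transcription factor of the interferon response, rose by 3.32 ± 0.64, the GTPase Gbp2 by 4.75 ± 1.03 and the immunoproteasome subunit Psmb9 by 3.07 ± 0.79. Isg15 and Mx1, markers of the type I interferon response, were not called. Isg15 read 55.8, 3.39, 2.09, 8.24 and 3.66 CPM in CON and 3.85, 3.35, 25.3, 16.02 and 30.2 CPM in ZXD (log2 fold change 0.11 ± 0.82, adjusted p = 0.937). Mx1 read 65.7, 5.44, 4.84, 13.9 and 4.51 and 11.3, 4.36, 25.00, 35.1 and 24.6 CPM (log2 fold change 0.09 ± 0.702, adjusted p = 0.938). CON 1 was the highest of all 10 libraries for both, and without it both were called higher, with adjusted p-values of 0.0372 and 0.0431. The 1 fall was Ifi27 (log2 fold change -0.87 ± 0.24, adjusted p = 0.0144). Without both ZXD 3 and ZXD 4 the count of 19 became 8.

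Chemokines, cytokines and their receptors rose in 19 of 29 tested members, with a median of 2.01. Ccl2, the main monocyte attractant, read 0.359, 0.535, 0.09496, 0 and 0.341 CPM in CON 1 to 5 and 1.65, 0.935, 10.5, 43.9 and 4.201 CPM in ZXD 1 to 5 (log2 fold change 5.47 ± 1.24, adjusted p = 0.00557). Tnf, tumour necrosis factor, read 0.807, 0.0891, 0, 0.177 and 0.1703 and 1.17, 1.01, 20.04, 17.7 and 4.13 CPM (log2 fold change 5.09 ± 1.13, adjusted p = 0.00493). Neither gene's groups overlapped, and ZXD 3 and ZXD 4 carried most of the signal. The 1 fall was Cxcl12, a chemokine of stromal cells (log2 fold change -1.13 ± 0.38, adjusted p = 0.0354), whose adjusted p was 0.0811 without CON 1, 0.0925 without CON 4, 0.0618 without ZXD 1, 0.07496 without ZXD 3 and 0.0855 without ZXD 4. The count of 19 became 11 without CON 3, 12 without CON 5, 10 without ZXD 3, 8 without ZXD 4 and 1 without both ZXD 3 and ZXD 4.

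Of 18 listed neutrophil and mast cell markers only 7 had enough counts, and 4 of these rose. S100a8, a defining neutrophil gene, was at 0 in 4 of 5 CON libraries and ranged from 0.0724 to 1.16 CPM in ZXD, close to the level of 3 counts. Lcn2, the iron-trapping lipocalin that neutrophils and injured hepatocytes both make, read 2.78, 17.7, 4.75, 3.102 and 3.41 CPM in CON 1 to 5 and 65.3, 7.71, 485, 1856 and 75.03 CPM in ZXD 1 to 5 (log2 fold change 6.29 ± 1.55, adjusted p = 0.00811). ZXD 2 fell within the CON range and ZXD 4 was the highest of the 10. Csf3r, the granulocyte growth factor receptor, rose by 3.08 ± 0.72 and the Fc receptor Fcgr3a by 2.48 ± 0.62. Without both ZXD 3 and ZXD 4 none of these 4 was called by edgeR.

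**Figure D4:**
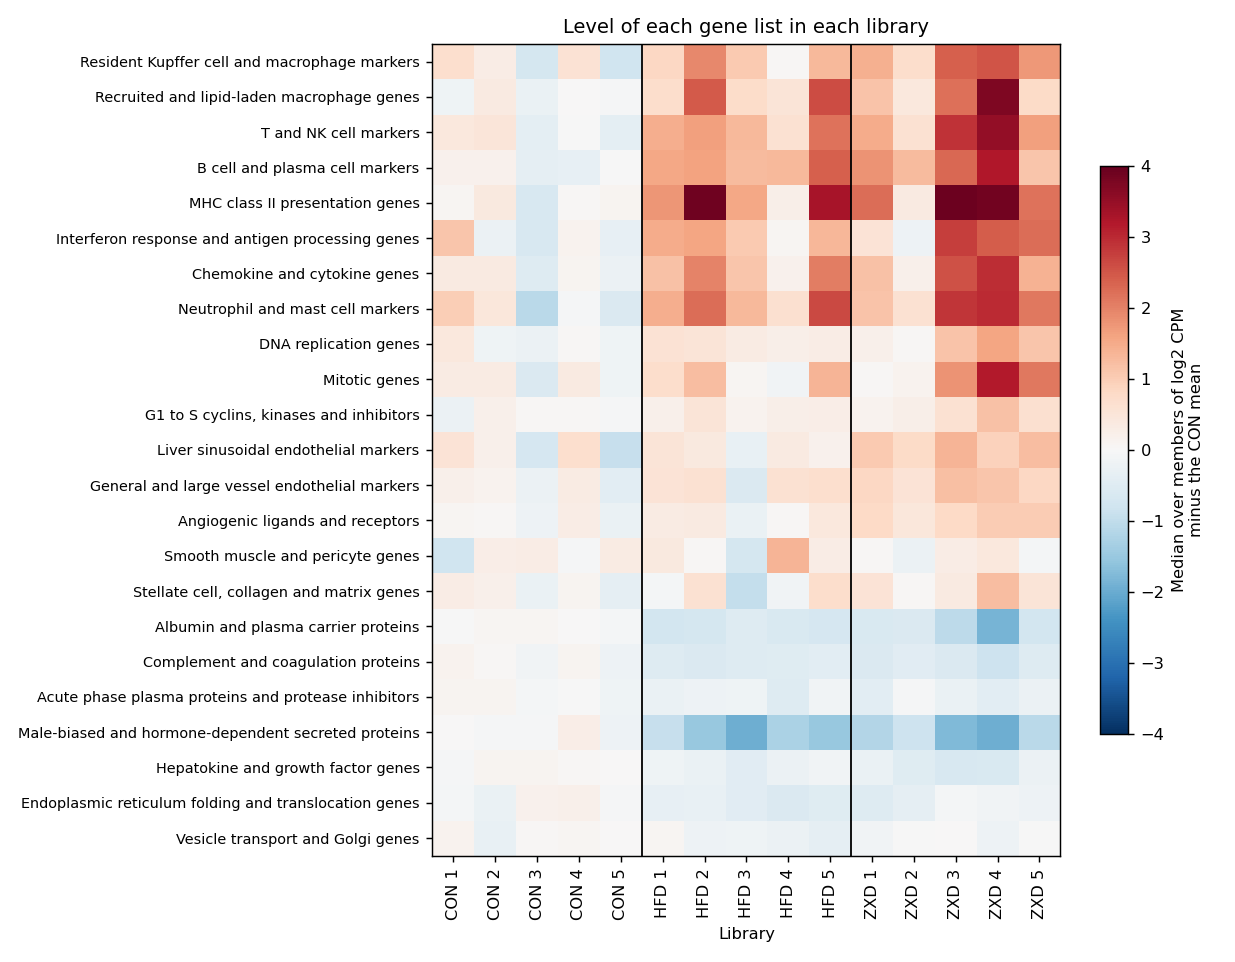
Median over the members of each list of log2 CPM minus the CON mean, for each of the 15 libraries (columns), with red above and blue below chow. For MHC class II genes the ZXD medians were 2.24, 0.37, 3.92, 3.85 and 2.16 in ZXD 1 to 5. For sinusoidal endothelial markers they were 1.05, 0.76, 1.36, 0.92 and 1.22, all above 0.

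Proliferation genes were higher in 3 of 5 ZXD libraries. The median of mitotic genes stood at 0.03, 0.16, 1.79, 3.17 and 2.099 log2 units from the CON mean in ZXD 1 to 5, and that of DNA replication genes at 0.22, 0.06, 1.13, 1.56 and 1.11. ZXD 1 and ZXD 2 were thus close to chow livers for mitotic genes, and ZXD 3, ZXD 4 and ZXD 5 were above them. In all, 14 of 27 tested mitotic genes, 15 of 30 DNA replication genes and 7 of 24 regulators of the G1 to S step rose, and 0 fell. These rises were 51.9%, 50% and 29.2% of the lists, against 17.9% over all genes. The medians were 2.004, 0.98 and 0.66. In HFD the medians were 0.72, 0.27 and 0.25. The mitotic count became 6 without CON 3, 9 without CON 4, 5 without CON 5, 24 without ZXD 2, 4 without ZXD 4, 8 without ZXD 5 and 1 without both ZXD 3 and ZXD 4. The replication count became 9 without ZXD 4 and 5 without both ZXD 3 and ZXD 4, and the G1 to S count 3 without CON 5, 3 without ZXD 4 and 3 without both ZXD 3 and ZXD 4. Markers of T and NK cells were highest in ZXD 3 and ZXD 4, while the mitotic median was highest in ZXD 4 and ZXD 5. The summed level of the T and NK list, 20 of 24 members of which rose, was 29.5 to 59.5 CPM in CON and 60.4 to 303 CPM in ZXD, with Cd3e above 0 in every library. Their part in the proliferation result was not tested.

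Top2a, the topoisomerase that untangles replicated DNA, and Mki67, the Ki-67 antigen, showed this division. Top2a read 0.628, 1.16, 0.5698, 0.975 and 0.936 CPM in CON 1 to 5 and 0.619, 0.156, 10.8, 28.6 and 13.1 CPM in ZXD 1 to 5 (log2 fold change 3.63 ± 1.01, adjusted p = 0.0147). Mki67 read 3.68, 5.79, 0.285, 5.67 and 1.62 CPM in CON and 3.92, 2.03, 24.9, 59.1 and 26.9 CPM in ZXD (log2 fold change 2.77 ± 0.87, adjusted p = 0.0253). For both genes ZXD 1 and ZXD 2 lay within or under the CON range and the other 3 lay above every CON library. The Mki67 adjusted p was 0.0549 without CON 3, 0.0617 without CON 5 and 0.0866 without ZXD 4. Limma voom called neither (adjusted p = 0.341 for Top2a and 0.172 for Mki67), and without both ZXD 3 and ZXD 4 edgeR gave 0.129 and 0.225. Ccna2, the cyclin of S and G2 phase, rose by 3.16 ± 0.87, and the kinesin Kif2c by 3.91 ± 0.97 from under the level of 3 counts. Both calls were lost by limma voom and without both ZXD 3 and ZXD 4. Cdk1, the mitotic kinase, read 0.0851 to 0.713 CPM in CON and 0.0779 to 5.79 CPM in ZXD and was not called (adjusted p = 0.0761, or 0.0389 without ZXD 2).

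Kif11, the kinesin that pushes spindle poles apart, behaved otherwise. It read 1.97, 1.604, 0.855, 1.86 and 1.11 CPM in CON 1 to 5 and 4.13, 3.27, 5.24, 12.98 and 6.23 CPM in ZXD 1 to 5 (log2 fold change 2.100 ± 0.37, adjusted p = 0.00149), and 4.79, 6.62, 7.75, 4.77 and 8.599 CPM in HFD 1 to 5, with a log2 fold change against CON of 2.13 (adjusted p = 0.00158). All 5 ZXD and all 5 HFD libraries exceeded every CON library, ZXD 1 and ZXD 2 included. Among replication genes Lig1, the ligase that joins Okazaki fragments, read 11.8, 5.79, 7.597, 7.002 and 5.62 CPM in CON and 12.8, 12.1, 33.2, 35.8 and 23.6 CPM in ZXD (log2 fold change 1.64 ± 0.32, adjusted p = 0.00249). Tyms, thymidylate synthase, ranged from 2.32 to 6.37 CPM in CON and from 8.49 to 11.3 CPM in ZXD (log2 fold change 1.22 ± 0.28, adjusted p = 0.00515). Neither overlapped. Mcm2, a subunit of the replicative helicase, rose by 1.33 ± 0.28. Pcna, the sliding clamp, was not called (log2 fold change 0.599 ± 0.23, adjusted p = 0.0566, or 0.04798 without ZXD 1 and 0.0216 without ZXD 2).

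Among regulators before S phase, some changes were small and even across livers. Cdk4, the kinase of G1, read 31.7, 30.04, 31.5, 29.2 and 33.4 CPM in CON 1 to 5 and 38.99, 39.3, 42.8, 37.8 and 38.9 CPM in ZXD 1 to 5 (log2 fold change 0.34 ± 0.08, adjusted p = 0.007302), a small rise with no overlap. Ccng1, a cyclin induced by p53, rose by 0.96 ± 0.18. The stress gene Gadd45b read 34.9 to 106 CPM in ZXD against 7.15 to 20.4 in CON (log2 fold change 2.33 ± 0.56, adjusted p = 0.00725). Cdkn1a, the p21 inhibitor, rose by 1.47 ± 0.45 (adjusted p = 0.0218), a call lost at 0.0544 without CON 5 and 0.0616 without ZXD 4. Ccnd1, cyclin D1, read 22.4, 4.72, 7.03, 26.3 and 6.04 and 13.2, 11.3, 31.3, 49.05 and 23.2 CPM and was not called (log2 fold change 0.95 ± 0.58, adjusted p = 0.227).

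Promoters of mitotic genes are shown because many are known to carry CCAAT boxes, bound by the factor NF-Y, and the cell cycle homology region TTTGAA, bound by the DREAM complex. Sequences are the bases before the gene start from RefSeq on GRCr8, 5′ to 3′ on the gene's strand, with CCAAT and TTTGAA on either strand in capitals. In Mki67 a TTTGAA and a reversed CCAAT overlap. The Mki67 window lies at chr1:199952594-199952793 (minus strand), that of Top2a at chr10:84473094-84473243 (minus strand) and that of Kif11 at chr1:244536717-244536866 (plus strand).
Mki67: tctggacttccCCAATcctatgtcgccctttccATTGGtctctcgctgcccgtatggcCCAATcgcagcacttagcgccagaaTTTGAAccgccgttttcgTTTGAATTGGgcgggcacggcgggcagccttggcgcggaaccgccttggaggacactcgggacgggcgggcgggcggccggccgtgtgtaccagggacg
Top2a: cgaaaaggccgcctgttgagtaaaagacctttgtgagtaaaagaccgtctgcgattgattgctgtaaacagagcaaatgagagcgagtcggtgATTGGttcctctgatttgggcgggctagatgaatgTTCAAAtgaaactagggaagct
Kif11: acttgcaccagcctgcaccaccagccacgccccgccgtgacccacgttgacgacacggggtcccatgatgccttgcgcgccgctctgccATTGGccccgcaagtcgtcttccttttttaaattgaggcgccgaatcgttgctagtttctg
Within 250 bases before the start, CCAAT occurred on either strand in 70.4% of 27 matched mitotic promoters (of 33 listed) and in 34% of 33469 promoters. TTTGAA occurred in 44.4% against 16.2%, and both motifs in 40.7% against 5.87%. Both motifs stood in 6 of 10 called and in 5 of 11 tested but uncalled mitotic genes with a promoter. Of 28 DNA replication promoters (of 32 listed), 64.3% held CCAAT and 1 held TTTGAA. The Kif11 stretch shown holds CCAAT without TTTGAA, and Top2a and Mki67 hold both. These matches describe letters and were not tested against the changes.

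The median of sinusoidal endothelial genes stood above the CON mean in every ZXD library. Among liver sinusoidal markers 10 of 21 tested members rose, with a median of 1.004, and among general and large vessel markers 14 of 30, with a median of 0.88. None fell by the same test. In HFD 2 of 21 and 5 of 30 were called higher, against 10% over all genes, with medians of 0.201 and 0.44. The difference between ZXD and HFD had medians of 0.63 and 0.39. There 12 of 21 and 9 of 30 members had an unadjusted edgeR p under 0.05 in either direction, against 16.5% over all genes. No gene passed the adjusted edgeR test between ZXD and HFD, where DESeq2 called 342 genes in all. The summed level of the sinusoidal list was 249.5 to 722 CPM in CON and 806 to 1035 CPM in ZXD, without overlap. The sinusoidal count became 5 without CON 2, 4 without CON 3, 6 without CON 5 and 2 without both ZXD 3 and ZXD 4, and the general count 8 without CON 3, 8 without CON 5, 8 without ZXD 3, 8 without ZXD 4 and 2 without both ZXD 3 and ZXD 4. The T and NK, MHC class II and macrophage lists were higher in ZXD as well, and their part in the vascular counts was not tested.

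Oit3, a zona pellucida domain gene of sinusoidal endothelium, read 21.4, 13.3, 5.79, 17.1 and 5.703 CPM in CON 1 to 5, 13.3, 24.8, 9.595, 12.7 and 18.2 in HFD 1 to 5 and 37.6, 23.8, 40.7, 28.6 and 43.7 in ZXD 1 to 5 (log2 fold change 1.46 ± 0.36, adjusted p = 0.008000). All ZXD libraries exceeded all CON libraries, while the HFD values spread across both ranges. Dnase1l3, a secreted nuclease of the same cells, rose from 27.4 ± 12.3 to 54.9 ± 10.9 CPM (log2 fold change 1.004 ± 0.28, adjusted p = 0.0148). Stab2, the hyaluronan scavenger receptor, read 30.7, 22.5, 10.6, 62.8 and 9.02 CPM in CON and 102, 88.98, 75.96, 47.5 and 62.7 CPM in ZXD (log2 fold change 1.48 ± 0.51, adjusted p = 0.0377). CON 4 reached the ZXD range, and the adjusted p was 0.0523 without CON 1, 0.0811 without CON 2, 0.0893 without CON 3, 0.0819 without CON 5, 0.0725 without ZXD 1, 0.0601 without ZXD 2 and 0.0629 without ZXD 3. Plvap, the diaphragm protein of endothelial fenestrae, rose by 2.15 ± 0.53, and by 1.57 in HFD.

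General endothelial genes gave a similar picture. Pecam1, or CD31, read 23.7, 18.4, 13.6, 27.6 and 11.6 CPM in CON 1 to 5 and 32.2, 30.8, 27.9, 28.6 and 30.2 CPM in ZXD 1 to 5. The groups did not overlap, but the test narrowly missed the threshold (log2 fold change 0.66 ± 0.25, adjusted p = 0.0508), with an adjusted p of 0.0408 without CON 1 and 0.0252 without CON 4. Vwf, von Willebrand factor, rose by 1.07 ± 0.38 (adjusted p = 0.0445), a call that was lost at 0.103 without CON 2, 0.102 without CON 3, 0.08598 without CON 4, 0.0566 without CON 5, 0.0786 without ZXD 1, 0.0764 without ZXD 3, 0.0841 without ZXD 4 and 0.0731 without ZXD 5. Egfl7, a secreted factor of endothelium, rose from 7.95 ± 0.787 to 14.8 ± 3.56 CPM (log2 fold change 0.896 ± 0.18, adjusted p = 0.00259). Fli1, a transcription factor of endothelial and blood cells, rose by 1.86 ± 0.38, and the adhesion molecule Icam1 by 1.77 ± 0.41.

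Of the angiogenic ligands and receptors 12 of 27 tested genes rose and 2 fell, with a median of 0.85. Nrp2, a co-receptor for VEGF-C and semaphorins, read 6.55, 3.74, 2.75, 8.95 and 2.13 CPM in CON 1 to 5, 21.4, 15.6, 11.7, 8.79 and 10.5 in HFD 1 to 5 and 33.4, 24.1, 39.3, 46.8 and 32.4 in ZXD 1 to 5 (log2 fold change 2.86 ± 0.37, adjusted p = 1.5e-04). Every ZXD library exceeded every HFD library, and 4 of 5 HFD libraries exceeded the CON range. The difference between ZXD and HFD was 1.37 ± 0.34 (unadjusted p = 0.00111, adjusted p = 0.139 by edgeR). Its relative Nrp1 ranged from 2.37 to 9.78 CPM in CON and from 14.9 to 31.8 CPM in ZXD (log2 fold change 1.88 ± 0.45, adjusted p = 0.00705). Kdr, the main VEGF receptor, read 95.5, 44.2, 23.4, 95.99 and 18.05 and 166, 178, 114, 78.2 and 139 CPM and was not called (log2 fold change 1.29 ± 0.52, adjusted p = 0.0712, or 0.0431 without CON 1). Pdgfa, a growth factor, rose by 1.19 ± 0.23.

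The falls were Vegfa and Ang. Vegfa, the main endothelial growth factor which hepatocytes make, read 586, 686, 918, 641 and 947 CPM in CON 1 to 5, 506, 319, 744, 581 and 459 in HFD 1 to 5 and 379, 403, 425, 371 and 434 in ZXD 1 to 5 (log2 fold change -0.91 ± 0.205, adjusted p = 0.00508). The ZXD values were the tightest of the 3 groups and lay wholly under CON. On library totals the Vegfa call was lost. Ang, the secreted ribonuclease angiogenin, fell by 0.85 ± 0.21. The angiogenic count of rises became 7 without CON 3, 6 without ZXD 4 and 3 without both ZXD 3 and ZXD 4.

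Of 15 tested smooth muscle and pericyte genes edgeR called 0, with a median of -0.06, and DESeq2 called 1; 2 had an unadjusted p under 0.05. Acta2, alpha smooth muscle actin, read 3.32, 6.33, 7.69, 5.94 and 9.53 and 7.77, 4.29, 14.9, 20.4 and 8.402 CPM (log2 fold change 0.76 ± 0.52, adjusted p = 0.281). In the stellate cell and matrix list 10 of 36 rose and 1 fell, or 27.8% and 2.78%, against 17.9% and 14.8% over all genes. Col1a1, the fibrillar collagen of scars, was not called: it read 9.33, 36.99, 1.899, 5.05 and 3.41 CPM in CON and 10.2, 1.71, 12.8, 56.6 and 10.1 CPM in ZXD (log2 fold change 0.69 ± 1.03, adjusted p = 0.641), and without ZXD 4 its log2 fold change was -0.38. The basement membrane genes Col4a1 (log2 fold change 1.44 ± 0.48, adjusted p = 0.0323) and Lama4 (log2 fold change 1.202 ± 0.35, adjusted p = 0.01700) were called higher, as was Vim, vimentin, of stellate and immune cells (log2 fold change 2.45 ± 0.65, adjusted p = 0.0113). The Col4a1 adjusted p was 0.0673 without CON 2, 0.0806 without CON 3, 0.0751 without CON 5, 0.0501 without ZXD 3 and 0.137 without ZXD 4. Fn1, fibronectin, which hepatocytes secrete in bulk, was the fall (log2 fold change -0.76 ± 0.23, adjusted p = 0.0216, or 0.0555 without CON 4), and on library totals it was not called (log2 fold change -0.300, adjusted p = 0.328). The count of 10 rises became 5 without CON 2, 2 without CON 3, 2 without CON 5, 6 without ZXD 1, 5 without ZXD 3, 2 without ZXD 4, 6 without ZXD 5 and 0 without both ZXD 3 and ZXD 4.

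**Figure D5:**
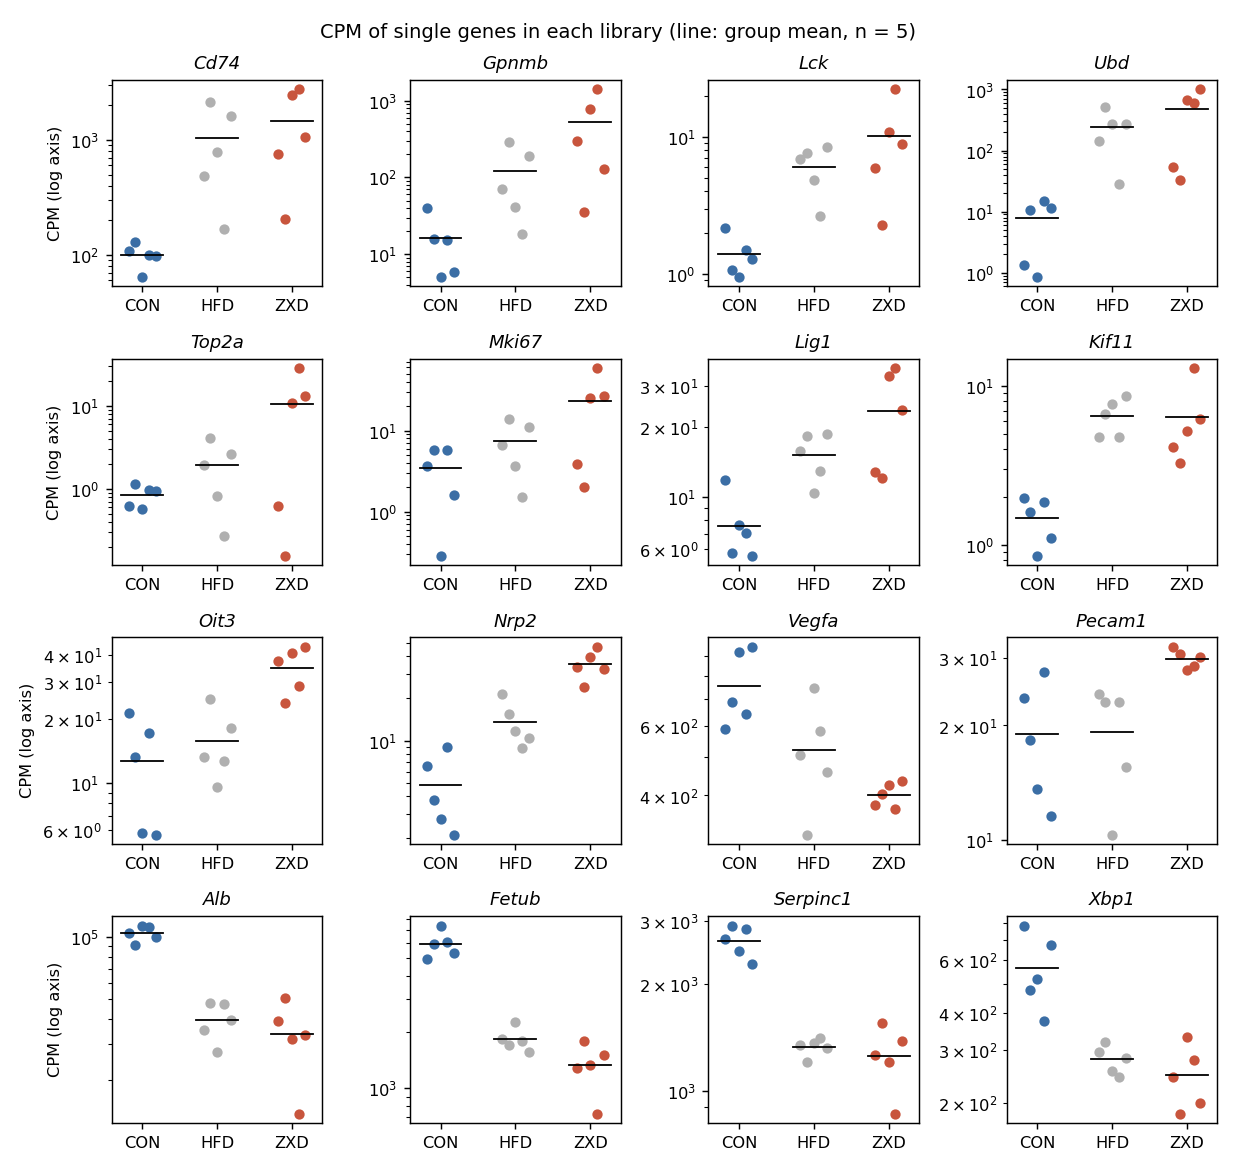
CPM on a log axis of 16 genes in each CON (blue), HFD (grey) and ZXD (red) library, with group means as lines. Immune and mitotic genes spread widely within ZXD, as Top2a at 0.156 to 28.6 CPM, while endothelial Oit3, Nrp2 and Pecam1 lie above every CON library and plasma protein genes such as Fetub lie below.

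Hepatocyte secretory genes fell, the carriers of the plasma among them. Of 29 tested carrier genes 18 fell and 1 rose, with a median of -0.85 (14 and 4 on library totals), and the list's share of all raw counts was 21.4% ± 0.61 in CON, 16.4% ± 2.4 in HFD and 14.7% ± 1.3 in ZXD (SD, n = 5). Other secretory lists took a larger mean share in ZXD than in CON: complement and coagulation 6.72% ± 0.895 and 8.23% ± 1.75, endoplasmic reticulum 0.966% ± 0.131 and 1.04% ± 0.1498, and vesicle and Golgi 0.3897% ± 0.0211 and 0.436% ± 0.00716 in CON and ZXD. Alb, serum albumin, read 104288, 91891, 113599, 111491 and 99880.3 CPM in CON 1 to 5 and 39073, 50599, 31808, 13791 and 33459.9 CPM in ZXD 1 to 5 (log2 fold change -1.63 ± 0.29, adjusted p = 0.00149). ZXD 4 was the lowest of these 10 libraries and ZXD 2 the highest of its group, with no overlap. Fetub, fetuin B, read 4931, 5937, 7412, 6038 and 5278 and 1275, 1794, 1329.7, 731 and 1501 CPM (log2 fold change -2.16 ± 0.22, adjusted p = 2.7e-05). Apoa4, an apolipoprotein of chylomicrons and HDL, fell from 1322 ± 394 to 52.1 ± 17.2 CPM (log2 fold change -4.67 ± 0.43, adjusted p = 9.2e-06), and to 43.3 ± 26.6 CPM in HFD. Apob, the structural protein of VLDL, was not called (log2 fold change 0.08 ± 0.23, adjusted p = 0.809). The 1 rise was Serpina7, thyroxine-binding globulin, which read 22.2, 16.04, 11.2, 2.92 and 14.1 CPM in CON, 100.4, 194, 166, 119.8 and 158 in HFD and 104, 91.9, 172, 122 and 153 in ZXD (log2 fold change 3.27 ± 0.39, adjusted p = 8.7e-05). Hepatocyte-defining genes, a list that also holds Alb, moved in the same direction, with 12 of 19 called lower and 0 higher. Their part was not tested.

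Of 48 complement and coagulation genes tested, 26 fell and 2 rose, with a median of -0.63. Serpinc1, antithrombin, read 2677, 2915, 2475, 2854 and 2277 CPM in CON 1 to 5 and 1258, 1551, 1202, 862 and 1379.7 CPM in ZXD 1 to 5 (log2 fold change -1.08 ± 0.16, adjusted p = 4.6e-04). Proz, protein Z, fell by 1.09 ± 0.13 and C8b, a chain of the membrane attack complex, by 1.06 ± 0.14. All 3 fell to near 2-fold lower levels without overlap. In HFD their log2 fold changes were -0.99, -0.97 and -1.11. The largest members by count were not called: C3 read 20689.8, 14279.6, 12400.1, 17759 and 12259 and 10856, 11226, 16638, 12497 and 18318 CPM (log2 fold change -0.15 ± 0.24, adjusted p = 0.651), and Fga, fibrinogen alpha, 8795, 6693, 6090.1, 6453 and 6470.3 and 5197, 6067, 11167, 10206 and 8684 CPM (log2 fold change 0.26 ± 0.24, adjusted p = 0.435). The rises were C4b, at 26.2, 50.6, 6.74, 12.3 and 9.704 CPM in CON and 19.5, 22.4, 227, 271 and 532 CPM in ZXD (log2 fold change 3.34 ± 0.897, adjusted p = 0.0124), and Cfd, factor D, a gene of fat cells too (log2 fold change 1.39 ± 0.34, adjusted p = 0.007300). C4b was high in ZXD 3, ZXD 4 and ZXD 5, the libraries that were also high for Ubd and Cxcl9. On library totals the list had 12 rises and 16 falls.

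In the list of acute phase plasma proteins 9 of 25 tested members fell and 4 rose. The falls were 36% of the list, against 14.8% over all genes. The rises were 16%, near the 17.9% over all genes. This list also holds Mt2A, a metallothionein that stays within cells. Serpina3c, a liver serpin, read 5442, 7768, 8878, 9216 and 11076 CPM in CON 1 to 5 and 675, 103, 629, 157 and 156 CPM in ZXD 1 to 5 (log2 fold change -4.62 ± 0.84, adjusted p = 0.00172). Itih1, which carries hyaluronan, fell by 1.18 ± 0.19 and Apcs, serum amyloid P, by 1.12 ± 0.19. The rises were Lbp, which binds bacterial lipopolysaccharide (log2 fold change 2.16 ± 0.55, adjusted p = 0.009698), the iron hormone Hamp (log2 fold change 1.18 ± 0.29, adjusted p = 0.007300), the metallothionein Mt2A (log2 fold change 1.801 ± 0.400, adjusted p = 0.00486) and Lcn2. Lbp read 405, 331, 1217, 1726 and 739 CPM in ZXD 1 to 5 against 111 to 312 in CON, again highest in ZXD 3 and ZXD 4. The Lbp call was lost without both libraries. On library totals the list had 8 rises and 6 falls.

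In the list of male-biased and hormone-dependent secreted proteins 13 of 18 tested members fell, with a median of -1.43. The list also holds Car3, an enzyme of the cytosol. Its counts and those of the secretory theme are thus not of secreted proteins alone. Igf1, the growth hormone-dependent growth factor, read 960.0, 490.2, 537, 859.6 and 533 CPM in CON 1 to 5 and 260.2, 241, 112, 83.4 and 217 CPM in ZXD 1 to 5 (log2 fold change -1.89 ± 0.43, adjusted p = 0.00544), without overlap. In HFD it read 166, 92.2, 68.1, 254 and 56.3 CPM, with a log2 fold change against CON of -2.41 (adjusted p = 0.00209). The 1 rise was its binding protein Igfbp2 (log2 fold change 1.75 ± 0.63, adjusted p = 0.0438), with an adjusted p of 0.0743 without CON 1, 0.0959 without CON 3, 0.0724 without CON 4, 0.0749 without ZXD 1, 0.0536 without ZXD 2, 0.112 without ZXD 3 and 0.0527 without ZXD 4. On library totals the list had 3 rises and 11 falls. Without both ZXD 3 and ZXD 4 the falls numbered 8.

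Among hepatokines and growth factors 6 of 24 fell and 3 rose, against 4 and 6 on library totals. Tsku, a secreted proteoglycan, read 224, 608, 670.4, 693 and 599 CPM in CON 1 to 5 and 16.7, 69.97, 14.9, 12.98 and 26.7 CPM in ZXD 1 to 5 (log2 fold change -4.31 ± 0.704, adjusted p = 9.2e-04), with no overlap although CON 1 was well under the other chow livers. Agt, angiotensinogen, fell by 1.47 ± 0.24, Mst1, macrophage stimulating protein, by 1.09 ± 0.17 and the lipase inhibitor Angptl4 by 2.57 ± 0.67. The rises were Fam3c (log2 fold change 1.27 ± 0.31, adjusted p = 0.00764), Inhbb, an activin subunit, and Fst, follistatin, which binds activins. Inhbb read 0.0897, 0.178, 0.09496, 0.0886 and 0 CPM in CON and 1.51, 0.234, 3.42, 3.35 and 1.74 CPM in ZXD (log2 fold change 4.39 ± 0.89, adjusted p = 0.00307). Fst read 0, 0.0891, 0, 0.266 and 0.0851 CPM in CON and 0.481, 0.623, 7.61, 15.96 and 0.435 CPM in ZXD (log2 fold change 5.68 ± 1.58, adjusted p = 0.0145). Both had CON values at or near 0, so their fold changes are uncertain in size.

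The secretory machinery gave smaller medians than its cargo. In the endoplasmic reticulum list 16 of 47 tested genes fell and 0 rose, with a median of -0.25. In the vesicle and Golgi list 7 of 34 fell and 2 rose, with a median of -0.05. The falls were 34.0% and 20.6% of these lists, against 14.8% over all genes. Of the vesicle and Golgi members 17 had a positive and 17 a negative log2 fold change, and the 2 rises were 5.88%, against 17.9% over all genes. On library totals the directions turned, to 8 rises and 2 falls and to 16 rises and 2 falls, so these directions hold relative to the bulk of genes. Xbp1, the transcription factor that expands the endoplasmic reticulum, read 782, 477, 517, 375 and 673 CPM in CON 1 to 5, 295, 319, 254, 244 and 283 in HFD 1 to 5 and 243, 184, 332, 277 and 199 in ZXD 1 to 5 (log2 fold change -1.19 ± 0.21, adjusted p = 0.00125). Its target Dnajb9, a co-chaperone, ranged from 58.02 to 106 CPM in CON and from 34.9 to 51.9 CPM in ZXD (log2 fold change -0.94 ± 0.17, adjusted p = 0.00185). Both were lower in all ZXD than in all CON libraries. The signal recognition particle receptor subunit Srprb fell by 0.66 ± 0.13 and the translocon subunit Sec61b by 0.55 ± 0.15; both calls were lost on library totals. The chaperones Hspa5, or BiP, and Hsp90b1 were not called, at 737, 449, 862, 945 and 616 and 494, 544, 847, 691 and 717 CPM (log2 fold change -0.13 ± 0.22, adjusted p = 0.676) and at 710.0 to 1154 and 612 to 955 CPM (log2 fold change -0.11 ± 0.19, adjusted p = 0.695). Without CON 3 the endoplasmic reticulum count of 16 became 10, and without both ZXD 3 and ZXD 4 it became 9.

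The Xbp1 promoter is shown because chaperone promoters are known for an endoplasmic reticulum stress element, CCAAT and CCACG with 9 bases of any kind between them, here in capitals. The window lies at chr14:84604473-84604622 (plus strand) of GRCr8, from RefSeq, 5′ to 3′ on the gene's strand.
Xbp1: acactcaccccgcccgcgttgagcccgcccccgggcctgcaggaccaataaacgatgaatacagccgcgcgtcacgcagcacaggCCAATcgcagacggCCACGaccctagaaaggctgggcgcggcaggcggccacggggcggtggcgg
On either strand within 250 bases before the start, 8 of 41 matched promoters of the endoplasmic reticulum list (of 47 listed) held the element, or 19.5%, against 0.0657% of all 33469 promoters. It stood in 2 of 15 genes called lower and in 6 of 26 that were not called. The match is a description of letters.

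In the vesicle list Sar1b, the small GTPase that starts COPII coats around large lipoproteins, read 166, 231, 225, 175 and 211 CPM in CON 1 to 5 and 111, 128, 107, 70.6 and 106 CPM in ZXD 1 to 5 (log2 fold change -0.95 ± 0.15, adjusted p = 7.3e-04). Mcfd2, which carries coagulation factors out of the endoplasmic reticulum, fell by 0.87 ± 0.14. Neither overlapped. Kdelr1, the receptor that returns resident proteins, fell by 0.38 ± 0.096 but stood at 0.049 on library totals. The rises were Golgb1, giantin, and the GTPase Arf4, at 0.44 and 0.35. Golgb1 had an adjusted p of 0.0491, or 0.133 without CON 2, 0.1404 without CON 3, 0.0795 without CON 4, 0.124 without CON 5, 0.111 without ZXD 1, 0.107 without ZXD 2, 0.0617 without ZXD 4 and 0.07398 without ZXD 5. Arf4 had an adjusted p of 0.0396, or 0.109 without CON 2, 0.0657 without CON 3, 0.0821 without CON 5, 0.0544 without ZXD 2, 0.0692 without ZXD 3, 0.0818 without ZXD 4 and 0.0874 without ZXD 5. The 7 falls became 3 without CON 3, 4 without CON 5, 4 without ZXD 3 and 3 without both ZXD 3 and ZXD 4.

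Of 19 tested hepatocyte-defining genes 12 fell and 0 rose. Cebpa, a transcription factor of hepatocytes, read 483, 454, 459, 316 and 553 CPM in CON 1 to 5 and 242, 247, 132, 134 and 185 CPM in ZXD 1 to 5 (log2 fold change -1.27 ± 0.23, adjusted p = 0.00161). Nr1h4, the bile acid receptor FXR, fell by 1.37 ± 0.19 and Asgr1, the asialoglycoprotein receptor, by 0.98 ± 0.15. Hnf4a was not called by edgeR (log2 fold change -0.56 ± 0.24, adjusted p = 0.0838, or 0.04801 without ZXD 2), while the DESeq2 test called it lower (adjusted p = 0.0467). Cps1, of the urea cycle, was not called (log2 fold change 0.23 ± 0.31, adjusted p = 0.611). The log2 fold change was negative in 18 of the 19 members and positive in 1.

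All 19 tested cholesterol synthesis genes fell, with a median of -1.81, under every setting tried. Cyp51, lanosterol demethylase, read 461, 514, 481, 454 and 326 CPM in CON and 26.3, 32.2, 19.7, 22.7 and 32.95 CPM in ZXD (log2 fold change -4.06 ± 0.202, adjusted p = 1.4e-08), and Fdps, farnesyl diphosphate synthase, fell by 2.89 ± 0.13 (adjusted p = 8.4e-09). In HFD their log2 fold changes were -3.89 and -2.92. Of 17 fatty acid synthesis genes 12 fell, among them Acss2 (log2 fold change -2.55 ± 0.202, adjusted p = 1.8e-06) and Thrsp (log2 fold change -3.61 ± 0.43, adjusted p = 8.7e-05). In the thyroid hormone list 3 of 15 tested genes rose and 3 fell. These shares, 20% each, were near the 17.9% higher and 14.8% lower over all genes. Dio1, the deiodinase, Thrsp and Slc17a2 fell and Serpina7, Cyp7a1 and Ucp2 rose. Dio1 read 58.9, 206, 194, 232 and 196 and 19.3, 23.5, 14.3, 5.06 and 11.5 CPM (log2 fold change -3.59 ± 0.48, adjusted p = 2.1e-04), and Slc17a2 changed by -1.68 ± 0.23. Cyp7a1, which starts the classic route from cholesterol to bile acids, read 449, 214, 117, 231 and 74.7 CPM in CON, 467, 290.4, 142, 413 and 553 in HFD and 896, 848, 294, 385 and 909 in ZXD (log2 fold change 1.62 ± 0.48, adjusted p = 0.02005, or 0.05698 without CON 3). ZXD 1, ZXD 2 and ZXD 5 were the high livers here, the reverse of the immune order for ZXD 1 and ZXD 2. Ucp2, a mitochondrial carrier of immune cells and hepatocytes, rose by 1.85 ± 0.51.

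In the cholangiocyte list 3 of 15 rose, a share of 20% that was near the 17.9% over all genes. The 1 fall, Onecut1, was 6.67% of the list, against 14.8% over all genes. The rises were Epcam (log2 fold change 1.06 ± 0.16, adjusted p = 5.7e-04), Anxa4 (log2 fold change 1.07 ± 0.19, adjusted p = 0.00131) and Spp1. Spp1, osteopontin, also made by macrophages, read 2.06, 1.16, 1.04, 0.532 and 0.681 and 0.688, 0.156, 3.700, 44.4 and 1.304 CPM (log2 fold change 3.196 ± 1.18, adjusted p = 0.0494), a rise that rested on ZXD 4 and was lost at 0.0564 without CON 1, 0.0904 without CON 2, 0.0966 without CON 3, 0.09896 without CON 4, 0.102 without CON 5, 0.0561 without ZXD 3 and 0.733 without ZXD 4. Of 6 erythroid markers 1 fell, Slc4a1 (log2 fold change -0.93 ± 0.32, adjusted p = 0.0388), with an adjusted p of 0.0659 without CON 1, 0.0799 without CON 2, 0.0789 without CON 5, 0.0648 without ZXD 1, 0.0742 without ZXD 3, 0.0858 without ZXD 4 and 0.0516 without ZXD 5. Of 4 tested markers of neighbouring tissues 1 rose, Cfd, or 25% against 17.9% over all genes. The 1 erythroid fall was 16.7% of its list, near the 14.8% over all genes.

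The genes described depend unevenly on single libraries. Of 125 described genes that were called, 14 lost the call when 1 library was left out, and 41 lost it without both ZXD 3 and ZXD 4. Leaving out 1 library moved the fold change of 31 of them by more than 1.5 times, which happened for 22 genes without ZXD 4 and for 6 without CON 1. Limma voom lost 29 calls: Itgam, Itgax, Cd8a, Nkg7, Ciita, Psmb9, Ccl2, Tnf, Lcn2, Csf3r, Fcgr3a, Mki67, Top2a, Ccna2, Kif2c, Vwf, Col4a1, C4b, Obp3, Fst, Mmp9, Pla2g7, Slamf6, Clec7a, Ptger2, Ankdd1a, RT1-CE16, Cxcl12 and Spp1. Library totals lost 9: Vegfa, Fn1, Srprb, Sec61b, Slc4a1, Apoe, Lipa, Ifi27 and Cxcl12, besides Kdelr1. On library totals Cd163, Cdk1, Pcna, Kdr, Pecam1, Apob and Fga were called higher, and limma voom called Pecam1 higher. The DESeq2 test called Cdk1, Pcna, Kdr and Pecam1 higher and Hnf4a lower. With the replicate number as a block 11 calls were lost: Mki67, Top2a, Ccna2, Col4a1, Fn1, C4b, Apoe, Cxcl12, Igfbp2, Arf4 and Spp1. That block called Kdr and Pecam1 higher. Of the 125 calls, 69 held under every setting. Without a filter on low counts Stab2, Vwf, Igfbp2, Golgb1, Arf4 and Spp1 were lost, with CON and ZXD alone Apoe, Igfbp2, Golgb1 and Spp1, and with DESeq2 size factors Golgb1 and Spp1.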

How the data were processed

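Liver RNA of 15 rat libraries, 5 each in CON, HFD and ZXD, was purified with Trizol and made into Illumina libraries, per the labels. The authors deposited 1 table with a whole-number read count and an FPKM value per gene and library, per the file headers. An edgeR step is named in the submitters' processing notes, without a version. Aligner, counter, strand use and genome build: not given in the sources used here. The deposited FPKM values equalled the count divided by gene length and library total (100% of values above 0 within 0.01%) and were not tested. A simvastatin group named in the labels was not analysed here.

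Counts were filtered with filterByExpr (minimum count 10, minimum total 15), scaled with TMM and fitted over all 15 libraries by edgeR 4.0.16 in R 4.3.3 with robust quasi-likelihood and no term but the group (12 residual degrees of freedom). Adjusted p-values are Benjamini-Hochberg values over 13163 genes, and genes under 0.05 were called. The F statistic gave the standard error of each log2 fold change. The fit was also run on counts simulated from its own estimates of spread, with 200 genes changed at random. Far more genes were called in the real data, so that run does not show how the fit performs on them. Distances were compared by a two-sided exact permutation test over libraries.

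The 30 gene lists (787 entries, 769 genes) and the rule for genes to describe were chosen with earlier results of these data known. The rule takes the 10 largest rises and 10 largest falls without overlap and with at least 5 CPM, up to 3 called members of each list of the 4 themes and up to 2 of each other list by adjusted p, and a set of marker genes whether called or not. It took 111 genes, of which 106 are described and the others are not reported here. Another 37 genes were chosen after their values were seen, among them Timd4, Clec4f, Cd163, Gbp2, Psmb9, Isg15, Mx1, Pcna, Kdr, Nrp1, Col4a1, Apob, C4b, Lbp, Inhbb, Hsp90b1, Hnf4a, Cps1 and Cebpa. With the lists outside the 4 themes counted as a theme of their own, 13 genes belong to more than 1 theme.

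Alternatives were DESeq2 1.42.0 (size factors, and its own test), library totals, limma 3.58.1 voom, no filter, a strict filter (1 CPM in 5 libraries), CON and ZXD alone, the replicate number as a block, and each library left out. Leaving out ZXD 3 and ZXD 4 together was added after seeing the data. Promoter sequences came from a RefSeq table of GRCr8, matched by symbol.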

Additional observations from a re-analysis of the deposited data

Results flagged for a closer look

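Single libraries stood apart from the other 4 of their group, by Dixon's criterion of 0.71 for 5 values, in 15 of 349 groups of values checked, where chance flags about 1 in 20. In CON 1, Fga was high at 8795 CPM (next 6693), while Tsku at 224 (next 599), Agt at 692 (next 1311), Mcfd2 at 202 (next 294) and Dio1 at 58.9 CPM (next 194) were low. CON 1 also had the only CON count of S100a8, at 0.0897 CPM, and the largest distance from the other CON livers, 0.753 log2 units (next 0.682). In CON 2, Lcn2 was high at 17.7 CPM (next 4.75). In CON 5, Irf1 was low at 9.11 CPM (next 14.98) and Cyp51 at 326 CPM (next 454). In ZXD 2, Vwf was low at 15.6 CPM (next 24.9), Mst1 was high at 196 CPM (next 122), and the median of the erythroid markers was high at 2.01 log2 units above CON (next -0.30). In ZXD 4, C8b was low at 275 CPM (next 370.0), and Gimd1 was at 0.244 CPM where the other ZXD libraries had 0.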

How the results depend on the processing

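Library totals gave 6041 rises and 628 falls over all genes, 0 immune falls, 63 proliferation rises, 80 vascular rises and 1 fall, and 57 secretory rises and 55 falls. There C3 stood at 0.28, Hspa5 at 0.31, Hsp90b1 at 0.33 and Kdelr1 at 0.049 on the log2 scale, above 0 in place of below. Limma voom gave 1529 rises over all genes, 49 immune and 14 proliferation rises. DESeq2 gave 1 proliferation fall. CON and ZXD alone gave 18 proliferation rises and 1 fall. Leaving out ZXD 3 and ZXD 4, chosen after seeing the data, gave 720 rises and 896 falls over all genes, and 23 immune, 9 proliferation, 7 vascular and 6 secretory rises. There the distance difference between ZXD and HFD was -0.0938, and log2 fold changes turned to -0.23 for Isg15, -0.49 for Mx1, -0.62 for Col1a1, -0.054 for Fga and -0.597 for Spp1. With 1 library left out, rises ranged from 75 to 127 (immune), 16 to 51 (proliferation) and 21 to 45 (vascular), falls from 2 to 5 (immune) and 0 to 2 (proliferation), and the distance difference from -0.00907 to 0.152. Log2 fold changes ranged from -0.021 to 0.44 for Clec4f, -0.27 to 1.85 for Isg15, -0.21 to 1.48 for Mx1, -0.38 to 1.87 for Col1a1 and -0.12 to 0.197 for Apob. The cause of these changes was not tested. Secretory falls moved by over 1.5 times on library totals alone.

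With the replicate number as a block the counts were 72 immune rises and 2 falls, and 19 proliferation rises and 1 fall. The labels do not say that the numbers pair rats: deviations of libraries with the same number correlated at -0.158 to 0.0149, and no library correlated best with its own number. No block was fitted for the distance. Depth limits genes near 3 counts, 0.183 to 0.285 CPM, which covers counting error alone.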
